A study of Mus musculus with 12 samples.

Results

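A set of 10 genes whose products stand on the surface of mouse Kupffer cells or are secreted by them were followed: Clec4f, Timd4, Vsig4, Marco, Cd163, Cd5l, Fcna, Folr2, Cd207 and Clec1b. They were chosen by gene symbol, as established markers of this cell, with earlier results of these data known. All 10 were found among the 25919 rows of the count table. The levels compared are those of 2 libraries labelled Kupffer cells at day 0 (Kupffer Day0 a and b) and 4 libraries labelled CD40 at day 2 (CD40 Day2 a, b, c and d). The labels give C57BL/6 mice, an age of 7 weeks and liver as the source for every library. They name no genotype or treatment, no event from which the days are counted, and no sorting gate. The series title speaks of whole liver, whereas the cell type labels read Kupffer cells or CD40, so how far cells were purified is not known. The 6 other libraries of the series, labelled Kupffer cells at day 7 and Ly6C CD40-negative at day 2, were not read by gene, since their values appear to have been sorted apart from the gene names. Day and cell label differ together between the groups, so the effects of day and label cannot be told apart.

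Kupffer cells are the resident macrophages of the liver. They line the sinusoids, where they bind blood-borne particles, bacteria, dying cells and old erythrocytes through lectins, scavenger receptors and complement receptors. Most of the 10 genes are switched on late as a macrophage settles in the liver, under signals from endothelial and stellate cells that act through LXR-alpha, SMAD4 and RBPJ, on top of the general macrophage factors PU.1 and MAF. Monocytes that enter the liver express few of them at first, which is why the set is used to tell resident from newly recruited macrophages.

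Total counts per library were 688498 to 1612435 in Kupffer Day0 and 725683 to 2271228 in CD40 Day2. Within each group, every pair of libraries differed by more than sampling noise (a chi-square of 3.17 to 11.7 for each degree of freedom). The design text speaks of biological replicates but names no animals, so p-values reflect the variation among these libraries only, part of which may be technical. Macrophage genes were present in both groups, and the Kupffer Day0 libraries also carried transcripts of other liver cells. The 19 sinusoidal endothelial genes took 2.76% and 2.86% of the counts in Kupffer Day0, against 0.464% and 0.410% for the 10 Kupffer cell markers, and 0.0801% to 0.137% in CD40 Day2. Kupffer Day0 b held more neutrophil transcripts than Kupffer Day0 a (0.329% against 0.0974% of counts) and more hepatocyte transcripts (0.144% against 0.0633%). In such bulk samples, fewer cells of a type and less RNA per cell cannot be told apart.

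The DNA just upstream of the markers' start sites was searched for short motifs of macrophage factors. The 4 stretches below are shown because Clec4f and Cd207 are neighbours, Fcna held the most matches, and Marco is the marker that did not pass the test. Each is the 250 bases before the RefSeq start site in build GRCm38.p6, on the gene's own strand. Capitals mark matches to the PU.1 motif GAGGAAG or the MAF half-site TGCTGA on either strand. The positions are chr6:83656117-83656366 for Clec4f, chr6:83677858-83678107 for Cd207, chr2:25627975-25628224 for Fcna and chr1:120505025-120505274 for Marco, all on the minus strand. The Fcna start site used lies inside the annotated span of the gene.
Clec4f: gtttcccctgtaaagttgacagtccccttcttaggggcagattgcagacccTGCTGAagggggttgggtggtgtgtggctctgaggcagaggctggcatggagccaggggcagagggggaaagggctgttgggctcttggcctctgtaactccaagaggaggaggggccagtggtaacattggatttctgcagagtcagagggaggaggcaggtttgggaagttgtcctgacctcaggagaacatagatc
Cd207: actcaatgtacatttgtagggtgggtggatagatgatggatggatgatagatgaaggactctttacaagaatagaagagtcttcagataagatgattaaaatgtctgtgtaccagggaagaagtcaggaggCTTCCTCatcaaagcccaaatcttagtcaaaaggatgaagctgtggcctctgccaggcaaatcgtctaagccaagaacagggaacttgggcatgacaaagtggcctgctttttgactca
Fcna: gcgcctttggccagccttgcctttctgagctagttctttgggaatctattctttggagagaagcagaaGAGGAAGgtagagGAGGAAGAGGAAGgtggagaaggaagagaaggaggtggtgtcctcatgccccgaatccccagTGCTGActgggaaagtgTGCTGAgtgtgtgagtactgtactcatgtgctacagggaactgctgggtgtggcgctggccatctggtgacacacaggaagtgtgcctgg
Marco: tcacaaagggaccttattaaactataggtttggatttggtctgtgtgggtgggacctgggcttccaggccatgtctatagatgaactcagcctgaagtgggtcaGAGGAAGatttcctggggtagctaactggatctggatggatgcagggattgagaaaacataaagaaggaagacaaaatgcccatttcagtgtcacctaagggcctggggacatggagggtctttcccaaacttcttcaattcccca

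RefSeq windows were found for all 10 markers (11 windows, since Folr2 has 2 start sites), among 32851 windows in the table. The MAF half-site TGCTGA lay in the windows of 5 of the 10 markers, Clec4f, Timd4, Cd5l, Fcna and Folr2, and in 16.1% of all windows. Fcna, Cd5l and Timd4 had 2 copies each in their window. The PU.1 motif GAGGAAG lay upstream of 4 markers, Marco, Cd5l, Fcna and Cd207, and in 10.6% of all windows. Fcna carried 3 copies, of which 2 overlap by their end base. The half-site AGGTCA of LXR-type nuclear receptors was found upstream of Clec4f and Timd4, and in 14.0% of all windows. Neither the RBPJ motif GTGGGAA (5.42% of all windows) nor an interferon-stimulated response element (2.98%) lay in the window of a marker. No match of one motif overlapped a match of another. A match describes these letters only and was not tested for binding.

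Of the 10 markers, 9 were lower in CD40 Day2 at an adjusted p under 0.05 and 0 were higher, by edgeR's quasi-likelihood test over all genes. Across the 9852 genes tested, 30.2% were called lower and 23.2% higher by this rule (53.4% in either direction). The markers' median log2 fold change was -6.09, beside -0.10 for all genes tested. In all 10 cases every CD40 Day2 library lay below both Kupffer Day0 libraries, a pattern shown by 36.9% of all genes tested, with 29.7% showing the opposite one. All 10 passed the filter on low counts, but Vsig4, Cd163, Folr2 and Cd207 passed through the Kupffer Day0 libraries alone and so had to differ. The 10 genes together gave 7486 and 2825 counts in Kupffer Day0 a and b, and 120, 56, 176 and 147 counts in CD40 Day2 a to d. An exact permutation of 4 against 2 libraries has 0.067 as its smallest two-sided p, and the calls draw on the spread that edgeR pools over genes.

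**Figure D1:**
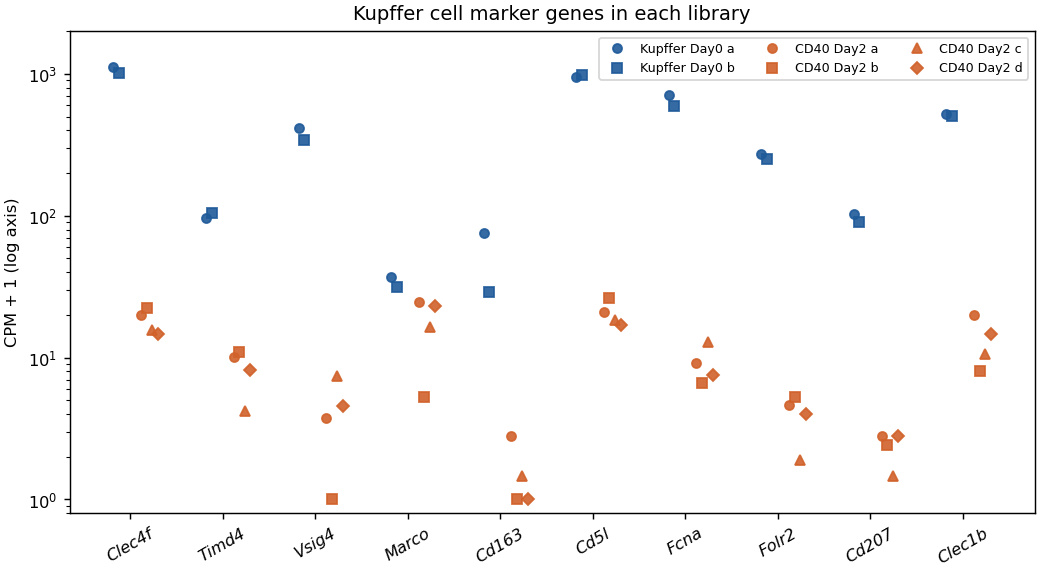
Level of each Kupffer cell marker in the 6 libraries, as CPM plus 1 on a log axis. Blue points are the 2 Kupffer Day0 libraries and orange points the 4 CD40 Day2 libraries, with 1 symbol per library letter, and the groups lie closest for Marco (30.6 and 36.2 CPM against 4.24 to 23.7).

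Among the lectins, Clec4f, a galactose-binding receptor made in mice almost only by Kupffer cells, lies on chromosome 6 from 83644542 to 83656116. It stood at 1126 and 1021 CPM, a count divided by the library total after TMM adjustment, in Kupffer Day0 a and b, and at 19.1, 21.2, 14.6 and 13.7 CPM in CD40 Day2 a to d. The CD40 values lay close together and far below both Kupffer values (log2 fold change -6.02 ± 0.20 SE, adjusted p = 1.5e-07). Summed over libraries, the CD40 level was 1.46% of the Kupffer level, with an exact 95% interval of 1.17% to 1.80% that covers counting error only.

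Cd207 encodes langerin, a mannose-binding lectin known from Langerhans cells. It lies next to Clec4f, from 83671207 to 83677857 on chromosome 6, 15090 bases away with 0 protein-coding genes between. Its levels were 102 and 89.1 CPM in Kupffer Day0, and 1.82, 1.41, 0.455 and 1.79 CPM in CD40 Day2, the latter from 7 counts in all. Cd207 thus fell about as far as its neighbour (-6.17 ± 0.34 against -6.02 ± 0.20 for Clec4f). This is not particular to the pair, since 8 of the markers, and 7.18% of all genes tested, had a log2 fold change of -4 or lower. Cd207 also passed the filter on low counts through Kupffer Day0 alone and so had to differ. Langerin is also made by some dendritic cells. The conventional dendritic cell genes took 0.0876% and 0.0893% of the counts in Kupffer Day0 and 0.113% to 0.223% in CD40 Day2. That list was mixed, with 5 of 12 tested genes higher in CD40 Day2 and 3 lower, beside 23.2% and 30.2% of all genes tested. The part of dendritic cells in the Cd207 level was not tested.

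Clec1b encodes CLEC-2, a receptor for podoplanin that platelets carry as well, on chromosome 6 from 129397297 to 129405413. It was measured at 518 and 501 CPM in Kupffer Day0, and at 19.1, 7.07, 9.56 and 13.7 CPM in CD40 Day2. The fall was -5.35 ± 0.26 on the log2 scale (adjusted p = 5.8e-07), and 2.40% of the Kupffer level was left (1.86% to 3.05%). Of 9 platelet genes, 7 were in the table, and the defining gene Pf4 was at 0 in all 6 libraries. The platelet list as a whole took 0.00267% and 0.00378% of counts in Kupffer Day0 and 0.00482% to 0.0126% in CD40 Day2, in large part through Gp6, and its part in the Clec1b level was not tested.

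Timd4 encodes Tim-4, a receptor for phosphatidylserine on dying cells and a marker of long-lived resident macrophages, on chromosome 11 from 46810786 to 46844333. Its levels were 95.3 and 103 CPM in Kupffer Day0, against 9.10, 9.90, 3.19 and 7.15 CPM in CD40 Day2. Timd4 fell by less than the lectins (-3.89 ± 0.32, adjusted p = 8.03e-06). The remaining level was 6.49% of that in Kupffer Day0 (4.44% to 9.25%), and this interval lies above those of the 8 markers that fell further.

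Vsig4 encodes CRIg, the complement receptor through which Kupffer cells take C3b-coated bacteria from the blood, on the X chromosome from 96247201 to 96293438. It was at 412 and 340 CPM in Kupffer Day0, and at 2.73, 0, 6.37 and 3.57 CPM in CD40 Day2. The 0 counts of CD40 Day2 b allow a level of up to 4.24 CPM (3 counts). Its log2 fold change of -6.56 ± 0.36 (adjusted p = 1.06e-06) stood 47th among the 9852 genes when ranked from the most lowered. Without CD40 Day2 c, the library with its highest CD40 level, it was -7.16. Vsig4 passed the filter on low counts through Kupffer Day0 alone and so had to differ, and its adjusted p and rank add no support.

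Of the scavenger receptors, Cd163, which takes up haemoglobin bound to haptoglobin, lies on chromosome 6 from 124304636 to 124330529. The Kupffer Day0 libraries differed more from each other here than for any other marker, with 74.6 and 27.9 CPM. In CD40 Day2 there were 2, 0, 1 and 0 counts, or 1.82, 0, 0.455 and 0 CPM. From these 3 counts the level was 115 times lower, with counting limits of 38.8 and 566, and edgeR gave a log2 fold change of -6.44 ± 0.66 (adjusted p = 3.31e-05). This value was -5.47 without Kupffer Day0 a and -7.47 without CD40 Day2 a. Cd163 also passed the filter through Kupffer Day0 alone, so its adjusted p adds no support.

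Marco, a class A scavenger receptor for bacteria and particles that other macrophages also make, went its own way. It lies on chromosome 1 from 120474538 to 120505024. Its levels were 36.2 and 30.6 CPM in Kupffer Day0, against 23.7, 4.24, 15.5 and 22.0 CPM in CD40 Day2. All 4 CD40 values were below both Kupffer values, but the highest was not far off, and the difference was not called (-0.97 ± 0.41, adjusted p = 0.07). It passed without a filter on low counts (adjusted p = 0.0117), with a filter of at least 10 counts in 4 libraries (0.0492), and on library sizes taken from pan-macrophage genes (7.13e-06). On those library sizes 7998 of the 9852 genes were called lower, and Marco lay -0.93 from the median of all genes. Without a filter, the edgeR adjusted p of the called markers was also far smaller, that of Clec4f being 1.69e-137 in place of 1.5e-07. The CD40 level was 50.9% of the Kupffer level (37.8% to 68.8%). The lowest value was that of CD40 Day2 b, the library in which Adgre1 and C1qb were also lowest.

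Cd5l and Fcna encode secreted proteins. Cd5l, also called AIM, is a scavenger protein with SRCR domains that circulates bound to IgM, and its gene lies on chromosome 3 from 87357881 to 87371074. It was at 950 and 979 CPM in Kupffer Day0, and at 20.02, 25.5, 17.3 and 16.1 CPM in CD40 Day2. The libraries of each group agreed closely, and the fall was -5.66 ± 0.19 (adjusted p = 1.5e-07).

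Fcna encodes ficolin A, a plasma lectin that starts the lectin pathway of complement. Its gene spans 25624665 to 25635440 on chromosome 2 and overlaps an annotated antisense gene, Fcnaos. Levels of Fcna were 714 and 593 CPM in Kupffer Day0, and 8.19, 5.66, 11.8 and 6.55 CPM in CD40 Day2. The fall was -6.24 ± 0.24 on the log2 scale (adjusted p = 2.22e-07).

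Folr2 encodes folate receptor beta, a surface protein of resident macrophages in many tissues, on chromosome 7 from 101839988 to 101857190, where an antisense gene and a processed pseudogene overlap it. Whether counting used strand is not given in the sources used here, so reads of overlapping genes may not be told apart. It was at 270 and 249 CPM in Kupffer Day0, and at 3.64, 4.24, 0.910 and 2.98 CPM in CD40 Day2. The fall was -6.64 ± 0.31 on the log2 scale (adjusted p = 4.61e-07), and it ranked 40th of the 9852 genes from the most lowered. As Folr2 passed the filter through Kupffer Day0 alone, neither value adds support.

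**Figure D2:**
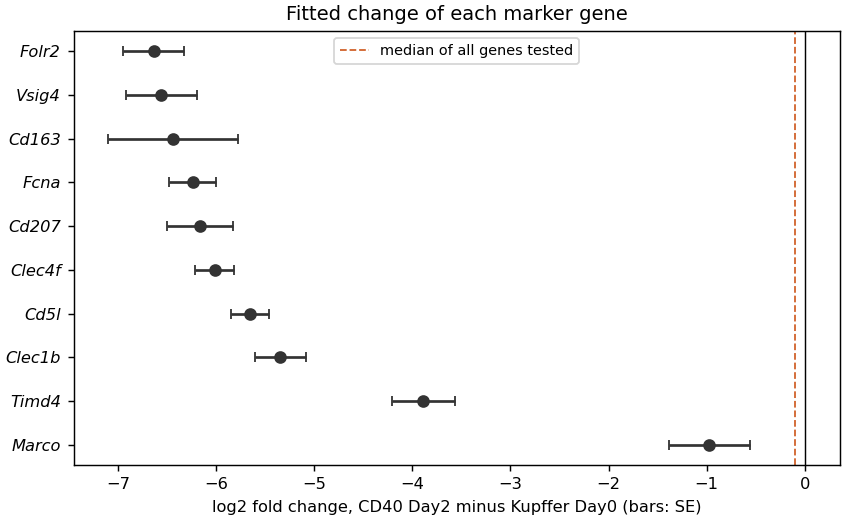
Log2 fold change of each marker, CD40 Day2 minus Kupffer Day0, from edgeR, with bars for the standard error; the dashed line is the median of all genes tested (-0.10). Of the markers, 8 lie between -6.64 and -5.35, Timd4 at -3.89 and Marco at -0.97.

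The markers did not all fall to the same extent. In CD40 Day2, 8 of them stood at 0.866% to 2.40% of their Kupffer Day0 level, Timd4 at 6.49% and Marco at 50.9%. The make-up of the summed marker counts differed between the groups accordingly. Marco gave 0.842% and 0.779% of these counts in Kupffer Day0 and 5.36% to 25.2% in CD40 Day2. Timd4 gave 2.22% and 2.62% in Kupffer Day0 and 3.98% to 12.5% in CD40 Day2. For both genes the shares in the groups did not overlap. The shares of Vsig4, Fcna, Folr2 and Cd207 were lower in every CD40 library than in both Kupffer libraries, and those of Clec4f, Cd163, Cd5l and Clec1b overlapped. Shares sum to a whole, so the larger part of Marco lowers that of the others. These shares do not depend on how libraries are scaled to each other, and they were not tested.

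**Figure D3:**
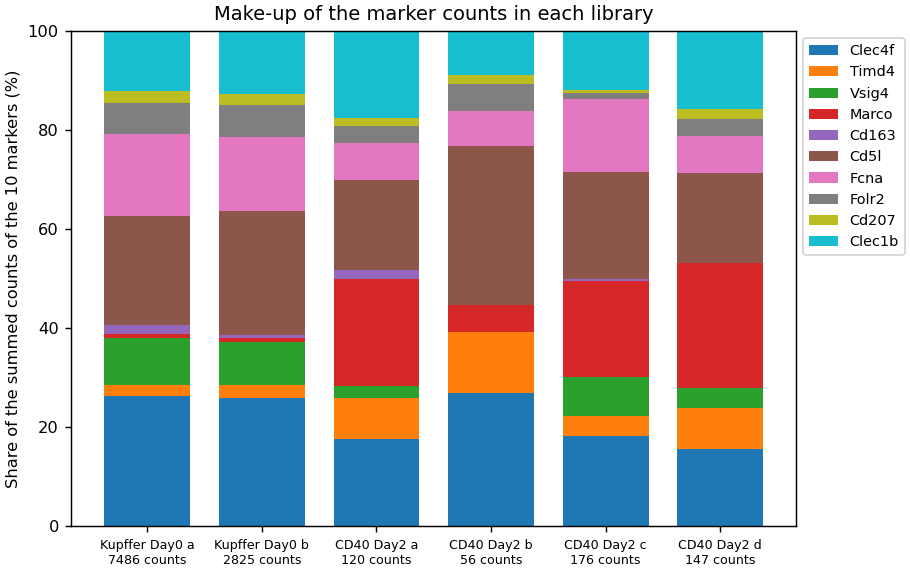
Share of each marker, in percent, in the summed counts of the 10 markers, as 1 bar per library with its number of marker counts below. Marco takes 5.36% to 25.2% of the bar in CD40 Day2 and 0.842% and 0.779% in Kupffer Day0 a and b.

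The markers were also set against Adgre1 within each library, which removes the scaling between libraries. Adgre1 encodes F4/80, a surface receptor of mouse macrophages in general. It also counts among the other Kupffer cell identity genes described below, as one of those not called. It was at 102 and 89.1 CPM in Kupffer Day0 and at 55.5, 38.2, 144 and 160 CPM in CD40 Day2. These ranges overlapped (log2 fold change 0.10 ± 0.48, adjusted p = 0.874), and the sign of this change turned when CD40 Day2 c or d was left out, under the stricter filter and on the pan-macrophage scale. For every 100 counts of Adgre1 there were 1108 and 1145 counts of Clec4f in Kupffer Day0, and 34.4, 55.6, 10.1 and 8.55 in CD40 Day2. For Cd5l the same ratio was 935 and 1098 against 36.1, 66.7, 11.99 and 10.04. In CD40 Day2 both ratios were higher in libraries a and b than in c and d. The ratio of Marco was 35.6 and 34.4 in Kupffer Day0 and 42.6, 11.1, 10.7 and 13.7 in CD40 Day2, so the groups overlapped. Against 2 other macrophage genes they did not. For every 100 counts of C1qb, Marco had 2.18 to 2.92 in Kupffer Day0 and 0.875 to 1.78 in CD40 Day2. For every 100 counts of Cd68, itself higher in CD40 Day2, it had 13.7 to 16.1 and 0.676 to 3.13.

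Other genes of Kupffer cell identity gave a more mixed picture than the surface and secreted markers. Of 28 such genes 27 were in the table and 23 were tested: 14 were lower, 4 higher and 5 not called. Their median log2 fold change was -2.92. Of all genes tested, 30.2% were called lower and 23.2% higher. C6, a component of the membrane attack complex, was at 67.6 ± 5.04 CPM in Kupffer Day0 (SD, n = 2) and 1.60 ± 0.578 in CD40 Day2 (n = 4). The iron exporter gene Slc40a1 was at 518 ± 133 against 17.3 ± 8.20 CPM. Itga9, an integrin subunit, was at 115 ± 5.66 against 5.35 ± 2.20 CPM, and Id3, an inhibitor of helix-loop-helix factors, at 234 ± 11.4 against 21.4 ± 6.19. Cdh5 and Lyve1, lower as well and picked out after their values were seen, are also endothelial genes. C6, Itga9 and Lyve1 passed the filter on low counts through Kupffer Day0 alone and so had to differ.

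The 4 identity genes that rose were Il18bp, Nr1h3, Spic and Axl. Il18bp, a secreted inhibitor of interleukin-18, was at 175 and 171 CPM in Kupffer Day0 and at 726, 420, 588 and 469 CPM in CD40 Day2 (1.67 ± 0.24, adjusted p = 0.000297). Nr1h3, which encodes LXR-alpha, was at 101 and 65.5 against 194, 110, 197 and 208 CPM (1.07 ± 0.29, adjusted p = 0.0101). Spic, a transcription factor of iron-handling macrophages, was at 23.0 and 9.75 against 36.4, 39.6, 72.4 and 77.4 CPM (1.69 ± 0.43, adjusted p = 0.00752). Axl, a receptor tyrosine kinase for dying cells, was at 102 and 103 against 255, 233, 185 and 221 CPM (1.12 ± 0.19, adjusted p = 0.000712). The groups did not overlap for these 4 genes. Without Kupffer Day0 b neither Nr1h3 (adjusted p = 0.106) nor Spic (0.0646) passed, which left 2 higher. On the pan-macrophage scale all 4 had negative log2 fold changes (-0.15 for Il18bp, -0.79 for Nr1h3, -0.18 for Spic and -0.68 for Axl). The median of all genes was then -1.94, and these 4 lay 1.79, 1.15, 1.77 and 1.26 above it. On that scale 20 of 23 identity genes were lower and 0 higher, beside 7998 lower and 322 higher of all 9852 genes tested.

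That scale takes each library's size from 18 measured pan-macrophage and monocyte genes. These took 1.33% and 1.43% of counts in Kupffer Day0 and 3.40% to 5.07% in CD40 Day2. On the usual scale 14 of 18 were higher and 1 lower, beside 23.2% and 30.2% of all genes tested. Cd68, a lysosomal protein of macrophages, was at 224 ± 0.189 CPM in Kupffer Day0 and 852 ± 220 in CD40 Day2 (1.93 ± 0.25, adjusted p = 0.00015). Spi1, which encodes PU.1, was at 58.5 ± 3.95 against 342 ± 20.6 CPM. Csf1r, the receptor for macrophage colony-stimulating factor, was at 330 ± 27.2 against 638 ± 247 CPM, with overlapping libraries (adjusted p = 0.0465). This call was lost under the stricter filter (0.0876) and without any one of Kupffer Day0 a or b or CD40 Day2 a, c or d (0.0725 to 0.207), and on the pan-macrophage scale Csf1r was lower (-0.93). The gene that fell was Mertk, a receptor for dying cells (212 ± 0.864 against 22.5 ± 14.0 CPM). On the pan-macrophage scale the median log2 fold change of all genes moved from -0.10 to -1.94, and the higher genes made up 3.87% of all calls in place of 43.5%. Csf1r then lay 1.015 above that median. All 10 of the Kupffer cell markers were then lower, among them Clec4f at -7.84, which is -5.90 from that median. All 9 markers called on the usual scale were lower on both.

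The C1q chains are complement proteins that macrophages make in quantity, and 1 of the 3 was called lower. C1qb was at 1322 ± 116 CPM in Kupffer Day0 and 1320 ± 655 in CD40 Day2, a difference that was not called (0.00 ± 0.42, adjusted p = 0.997). On the pan-macrophage scale C1qb was lower (-1.90), which is 0.05 from the median of all genes. C1qa was at 460 ± 5.18 against 226 ± 105 CPM (adjusted p = 0.0348), a call lost without Kupffer Day0 a or b or CD40 Day2 a or c (adjusted p = 0.0687 to 0.147). C1qc was not called (-0.67 ± 0.42, adjusted p = 0.202), but it was lower without a filter on low counts (0.00537) and without CD40 Day2 d (-1.08, adjusted p = 0.0185). On the pan-macrophage scale all 3 chains were lower, C1qc by a log2 fold change of -2.58, which is -0.64 from that median. For every 100 counts of C1qb there were 72.7 to 90.8 counts of Clec4f in the Kupffer libraries and 0.656 to 4.37 in the CD40 libraries.

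**Figure D4:**
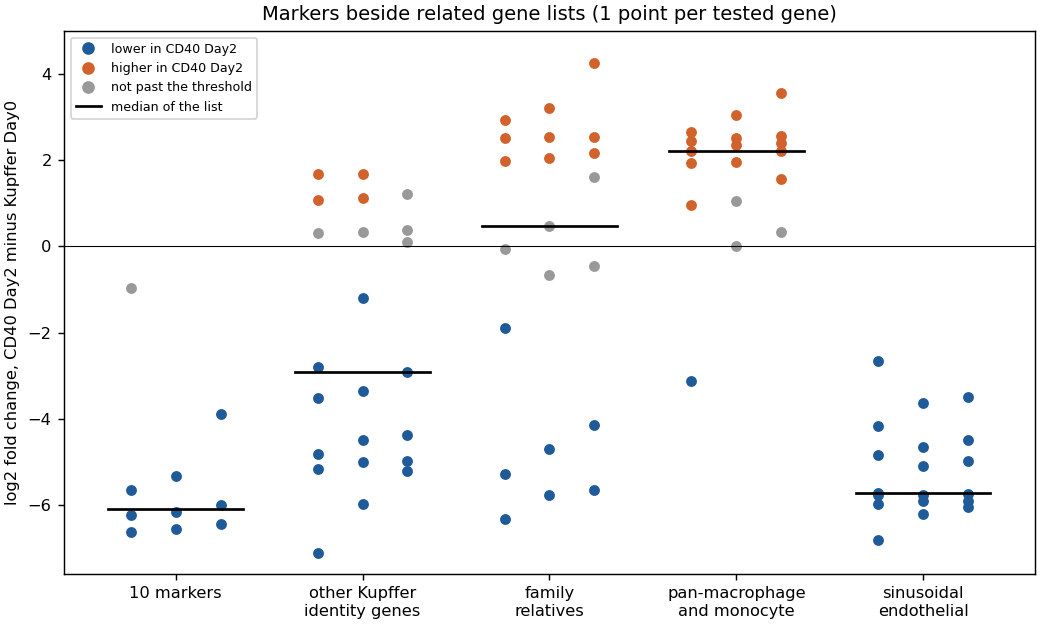
Log2 fold change, CD40 Day2 minus Kupffer Day0, of each tested gene in 5 lists, with a bar at the median of each list. The 10 Kupffer cell markers (median -6.09) lie near the sinusoidal endothelial genes (-5.73), while their family relatives spread from -6.32 to 4.27.

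Relatives of the markers by gene family or function were examined in the same fit. Of 40 such genes 38 were in the table and 21 were tested, with 7 lower, 9 higher and 5 not called. The shares over all genes tested were 30.2% lower and 23.2% higher. On the pan-macrophage scale 11 of the 21 were lower and 1 higher, beside 7998 lower and 322 higher of all 9852 genes tested. The 4 relatives with the lowest adjusted p all fell. They were Colec11 (181 ± 5.66 against 3.10 ± 1.31 CPM) and Colec10, soluble collectins known from stellate cells, Clec1a (158 ± 15.2 against 4.11 ± 2.82 CPM), and Clec4g, the endothelial lectin LSECtin (6836 ± 877 against 125 ± 78.0 CPM). Slc46a1, a folate transporter that works beside folate receptors, also fell, from 47.1 and 55.7 CPM to between 1.19 and 4.10 CPM. Colec11, Colec10, Clec1a and Slc46a1 passed the filter on low counts through Kupffer Day0 alone and so had to differ. Their adjusted p adds no support.

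The called Clec4 lectins moved in opposite directions. Clec4f and Clec4g fell, whereas Clec4a1, Clec4a2, Clec4a3, Clec4d, Clec4e and Clec4n rose, genes that were singled out after their values were seen. Clec4b1 was not called (-0.06 ± 0.54, adjusted p = 0.942). Clec4e, which encodes Mincle, a receptor for glycolipids of microbes and dead cells, was at 19.5 and 43.2 CPM in Kupffer Day0 and at 611, 226, 793 and 602 CPM in CD40 Day2 (4.27 ± 0.56, adjusted p = 0.000153). Clec4a3 was at 74.1 and 75.2 against 357, 221, 521 and 622 CPM (2.54 ± 0.40, adjusted p = 0.00047). Clec4n, which encodes Dectin-2, was at 47.7 and 68.2 against 188, 113, 273 and 310 CPM. In each of these 3 genes the lowest CD40 value was that of library b. Without Kupffer Day0 a neither Clec4d (adjusted p = 0.121) nor Clec4a2 (0.134) was called, nor was Clec4a2 without Kupffer Day0 b (0.102). On the pan-macrophage scale the 6 genes kept a positive sign, but Clec4e alone passed the threshold (2.37, adjusted p = 0.000108).

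The other relatives that rose were Clec7a, the beta-glucan receptor Dectin-1, Clec12a and Havcr2. On the pan-macrophage scale none of these 3 passed (0.19 for Clec7a, adjusted p = 0.591; 0.67 for Clec12a, 0.0565; 1.37 for Havcr2, 0.142). Havcr2 encodes Tim-3, of the same receptor family as Tim-4. It was at 0.574 and 2.79 CPM in Kupffer Day0 and at 5.46, 11.3, 13.7 and 17.3 CPM in CD40 Day2. This direction was opposite to that of Timd4 (3.21 ± 0.76, adjusted p = 0.00536). Havcr2 passed the filter on low counts through CD40 Day2 alone and so had to differ, and its adjusted p adds no support. From 3 Kupffer counts the level was 10.5 times higher, with counting limits of 3.47 and 52.3, and the call was lost without Kupffer Day0 a (0.133). Msr1, a class A scavenger receptor like Marco, was at 199 and 220 CPM against 111, 50.9, 194 and 241 CPM and did not pass (adjusted p = 0.415). Fcnb, which encodes ficolin B of monocytes and neutrophils, had 0 counts in both Kupffer libraries and was at 2.73, 1.41, 2.73 and 1.19 CPM in CD40 Day2. It did not pass the filter on low counts and was not tested.

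Genes of other cells moved with the markers. Across all genes tested, 30.2% were called lower and 23.2% higher. All 19 sinusoidal endothelial genes were lower in CD40 Day2 (median -5.73), for example Bmp2, a signal to hepatocytes (1053 ± 61.5 against 13.7 ± 4.01 CPM), and Ehd3, a membrane-trafficking protein (3703 ± 42.4 against 58.0 ± 11.98). Of 12 tested stellate cell and fibroblast genes 11 were lower, such as Dcn (607 ± 38.9 against 10.9 ± 6.49 CPM), and the list took 0.196% and 0.163% of counts in Kupffer Day0 and 0.0148% to 0.0271% in CD40 Day2. Of 9 tested hepatocyte genes 8 were lower, among them Trf (229 ± 50.7 against 26.9 ± 10.6 CPM). Classical monocyte genes went the other way, with 11 of 14 higher and 0 lower, led by Ms4a4c (71.4 ± 9.27 against 1596 ± 237 CPM) and Plac8 (555 ± 20.6 against 6909 ± 571). They took 0.502% to 0.573% of counts in Kupffer Day0 and 2.57% to 3.78% in CD40 Day2. The part of these cells in the fall of the markers was not tested.

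Of 12 tested dendritic cell genes 5 were higher and 3 lower, beside 23.2% and 30.2% of all genes tested. Among them Naaa, a lipid amidase, was at 25.9 ± 3.15 against 551 ± 63.1 CPM. The number of higher dendritic cell genes was 3 of 13 tested without Kupffer Day0 a, 9 of 12 without CD40 Day2 d and 2 of 12 on the pan-macrophage scale. Of the lower genes Fscn1, singled out after its values were seen, passed narrowly (adjusted p = 0.0409) and was not called by DESeq2 (0.235) or without Kupffer Day0 a or b or CD40 Day2 a, c or d (0.0625 to 0.168). Of 9 tested neutrophil genes 1 was higher, Csf3r, and 1 lower, Mmp9. Csf3r was not called without Kupffer Day0 a (adjusted p = 0.209) or CD40 Day2 c (0.0606), nor Mmp9 without Kupffer Day0 b (0.368). The neutrophil list gave 4 lower and 0 higher of 10 tested without Kupffer Day0 a, and 8 lower and 0 higher of 9 on the pan-macrophage scale. Of 3 tested platelet genes 1 was higher, Gp6 (1.27 ± 0.173 against 74.6 ± 34.1 CPM). Its level was 69.7-fold higher from 3 Kupffer counts (counting interval 23.7 to 339). The 2 lower were Itgb3 and Itga2b, the latter not called without Kupffer Day0 a or b. Gp6 passed the filter on low counts through CD40 Day2 alone. Itgb3 and Itga2b passed it through Kupffer Day0 alone, so all 3 had to differ. Of 2 tested B and plasma cell genes Jchain was lower, a call lost without Kupffer Day0 b (0.527), and on the pan-macrophage scale both were lower. The 2 tested T and NK cell genes, Gzma (adjusted p = 0.232) and Nkg7 (0.968), were not called by edgeR, and both were lower on the pan-macrophage scale. On that scale 7998 of all 9852 genes tested were lower and 322 higher, which bears on each count given on it here.

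Many genes outside the marker set had the same pattern. Over the 6 libraries, the 5 genes closest to the mean profile of the 10 markers were Enpp6, Mgll, Nckap1, Mest and Wwtr1, among 5661 candidates. Likeness was measured as the root mean square distance between log2 CPM profiles, each centred on its own mean, and came to 0.107, 0.157, 0.168, 0.185 and 0.186. Mgll, which encodes monoglyceride lipase, was at 331 and 304 CPM in Kupffer Day0 and at 12.7, 7.07, 6.37 and 7.15 CPM in CD40 Day2. Of the markers themselves, Cd207 (0.239) and Clec1b (0.263) lay nearest to the mean profile, and Marco (1.88) farthest. With 2 groups this far apart, likeness in profile is mostly likeness in the size of the fall.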

How the data were processed

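Poly(A) RNA was read at its 3' ends in bulk libraries with barcodes and molecular identifiers, per the labels' protocol. The authors deposited 1 table of raw counts per gene symbol for 12 libraries. Build GRCm38.p6 and DESeq2 1.22.2 are named in the submitters' processing notes. The sources used here do not give the aligner, the annotation, the use of strand, or whether reads or molecular identifiers were counted. Columns carry the group but no replicate number, so letters follow column order, as names only. The 6 columns of the other groups were not read by gene.

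The 6 libraries were fitted with edgeR 4.0.16 in R 4.3.3 (TMM, filterByExpr defaults, quasi-likelihood test, two-sided, no block), with Benjamini-Hochberg adjustment over all 9852 genes tested and a threshold of 0.05. Each SE is the log2 fold change divided by the root of its F statistic. The fit was tested on simulated data with few changed genes, which does not test the scaling where many genes change, as here. Total counts of 688498 to 2271228 limit low genes: 1 count is worth 0.455 to 1.41 CPM. Intervals (Clopper-Pearson, 95%) and floors (3 counts) cover counting error only.

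The markers and lists were chosen with earlier results of these data known. Named are the 10 markers, up to 4 genes per list with the lowest adjusted p, identity genes that rose, Adgre1, Csf1r and Cd68, and the 5 genes most like the markers among those of at least 20 CPM (log2 CPM, prior count 2); others were chosen after their values were seen. Motifs were chosen after the data were seen. Alternatives were RLE scaling, DESeq2 1.42.0, other filters, pan-macrophage library sizes and leaving out each library. Gene positions and sequences are from RefSeq, overlaps from GENCODE M21.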

Additional observations from a re-analysis of the deposited data

Results flagged for a closer look

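In CD40 Day2 c, Fcna gave 14.8% of the summed counts of the 10 markers, against 7.14% to 7.50% in the other 3 CD40 Day2 libraries, a gap of 0.953 of the group's range. It was the 1 value that stood apart among 34 sets of 4 values examined, and chance alone sets 1 in 20 such sets apart. Fcna held 26 counts in that library.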

How the results depend on the processing

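Of the 10 markers, the 9 that were called kept their direction and their call under every alternative that could fit them; the stricter filter left 6 markers to test, all called lower. The lowest and highest log2 fold changes over the alternatives were -7.84 and -5.93 for Clec4f, -5.73 and -3.54 for Timd4, -8.46 and -6.28 for Vsig4, and -8.28 and -5.47 for Cd163. Marco passed the threshold without a filter (-0.97), with at least 10 counts in 4 libraries (-1.10) and on pan-macrophage library sizes (-2.87). On those library sizes 7998 genes were called lower and 322 higher, in place of 2974 and 2288. Leaving out each library gave 1800 to 2963 lower and 1406 to 2551 higher genes, with the lowest counts without Kupffer Day0 a. Of the other Kupffer identity genes, 9 were lower under the stricter filter, which tests 18, 0 were higher on pan-macrophage sizes, and leaving out each library gave 2 to 5 higher. No paired analysis was possible because the columns carry no replicate numbers. With 2 Kupffer Day0 libraries, leaving out 1 leaves a lone library assumed to vary like the others. Levels under 3 counts, or 1.37 to 4.24 CPM in CD40 Day2, could not be told from 0, which touches Cd207, Cd163, Folr2 and Vsig4.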

Other observations

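Cd207 and Adgre1 had the same counts in both Kupffer Day0 libraries, 177 in a and 64 in b. Of 15 other genes with 177 counts in Kupffer Day0 a, 2 (Adgre1 and Ube2d1) also had 64 in b. In CD40 Day2 the levels of Cd207 and Adgre1 differed, at 0.455 to 1.82 CPM and 38.2 to 160 CPM. Marco shared both of its Kupffer counts, 63 and 22, with 4 other genes, and Timd4 shared its 166 and 74 with Matr3, while the other 7 markers shared theirs with none.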
